A study of Mus musculus with 2 samples.

Results

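Histone genes were described in single colonic epithelial cells from mice with and without Mettl14, a core subunit of the complex that writes N6-methyladenosine on mRNA. The genes were taken by symbol: every gene of the count matrix that starts with Hist1h, Hist2h, Hist3h, Hist4h, H1f, H2af, H3f or H2bf and has at least 1 UMI (unique molecular identifier, a tag that counts 1 captured RNA molecule). This gave 73 of 17829 genes. Of these, 62 were replication-dependent histone genes (6 for H1, 15 for H2A, 16 for H2B, 12 for H3 and 13 for H4), 10 were replacement histone genes, and H3f3aos is an antisense transcript of H3f3a and no histone gene. H3f3aos had 23 UMIs in WT and 13 in KO and is left out of every group below.

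The samples were 1 library of Mettl14 WT cells and 1 library of Mettl14 KO cells, both from C57BL/6 mice, from live EpCAM-positive cells sorted by flow cytometry and run on the 10x Genomics 3′ V2 chemistry. The series text gives 2 weeks as the time without naming its starting point, and the labels used here name neither the Cre driver, the deleted exons nor the number of mice pooled. With 1 library per genotype no test of the genotype is possible. Every value below compares these libraries, and every interval is a 95% interval that covers counting error only.

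The WT library held 4210 cells and 60205658 UMIs, and the KO library held 3653 cells and 37635762 UMIs, with 2 barcodes shared between them. Median UMIs per cell were 12094 in WT and 9119 in KO. Mettl14 itself was at 10.5 CPM (UMIs scaled to the same total in each group of cells) in WT and 5.34 CPM in KO, although 3′ tags may lie outside the deleted part, so this does not check the labels. The 4 epithelial markers were detected in both libraries. Stromal markers summed to 119 CPM in WT with 8 of 8 detected and to 21.3 CPM in KO with 1 at 0. Pancreatic enzyme markers summed to 1655 CPM in WT with 12 of 12 detected and to 145 CPM in KO with 7 at 0, and immune markers summed to 79.3 and 113 CPM with 8 of 8 detected in both. Both libraries held cells of both sexes by Xist and Y-linked UMIs.

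Histones package DNA into nucleosomes. Replication-dependent genes sit in clusters, mostly lack introns, and are switched on as cells enter S phase. Their mRNAs end in a conserved stem-loop in place of a poly(A) tail, which the stem-loop binding protein SLBP reads, and the U7 snRNP and its Lsm10 and Lsm11 proteins direct the cut behind it. Replacement histones such as H3.3, H2A.Z, macroH2A and H1.0 come from single genes with polyadenylated mRNAs and are made throughout the cell cycle. Some replication-dependent genes also make polyadenylated mRNAs that run past the stem-loop, above all in cells that leave the cycle. A 3′ library primed from poly(A) samples such polyadenylated mRNAs, so the values below are levels of tags and not of all histone mRNA.

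The stem-loop was searched in the annotated transcripts as the 16-base histone 3′ stem-loop consensus, on the transcript strand. It was found in 45 of 62 replication-dependent genes against 201 of 55450 annotated genes (0.362%), and 11 of the 17 genes without a match had no annotated 3′ UTR. Of the replacement genes, 1 of 10 held it, and that gene was H2afx. The sites below are from genes on which the results turn, given 5′ to 3′ with the stem-loop in capitals.
Hist1h1c: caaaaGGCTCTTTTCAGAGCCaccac
Hist1h2ac: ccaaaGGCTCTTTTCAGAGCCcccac
Hist3h2a: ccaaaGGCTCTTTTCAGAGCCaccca
Hist4h4: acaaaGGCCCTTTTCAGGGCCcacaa
Hist1h2ae: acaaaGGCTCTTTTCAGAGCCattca
Hist1h2ap: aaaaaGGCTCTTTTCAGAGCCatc
Hist1h3c: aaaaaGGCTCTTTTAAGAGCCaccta
H2afx: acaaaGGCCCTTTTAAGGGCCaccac

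The stem-loop letters of Hist1h1c, Hist1h2ac, Hist3h2a, Hist1h2ae and Hist1h2ap were the same, the form found in 25 of the 45 genes. What differed was how far the annotated transcript ran on behind it. It continued for 840 bases in Hist1h1c, 2010 in Hist1h2ac, 1643 in Hist3h2a, 2445 in Hist4h4 and 822 in H2afx. It ended 151 bases behind the stem-loop in Hist1h2ae, 74 behind it in Hist1h3c and 3 behind it in Hist1h2ap. The replication-dependent genes were therefore also described as 21 genes with an annotated 3′ UTR of at least 300 bases, called extended here, and 41 with a shorter one or none, called short. This grouping was chosen after seeing the data. Of the 21 extended genes, 18 held a stem-loop match. Hist1h2bc, the extended gene with the most UMIs, held none and had 2 exons in every annotated transcript, so the group is not only transcripts that run past a stem-loop.

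Of the 62 replication-dependent genes, 50 lie in the Hist1 cluster on chromosome 13, 9 on chromosome 3, 2 on chromosome 11 and 1 on chromosome 6, and 58 were on 1 exon in every annotated transcript. Copies of these genes resemble each other: in 36 of the 73 genes at least 50% of the 50-base words in the last 400 bases also occurred in another gene. Reads of such genes may have been dropped or assigned to a copy, so their values are uncertain. Hist1h2ap, Hist1h1e and Hist2h3c1 had 100% of these words in other genes, while Hist1h1c, Hist1h1b, Hist1h2ac, Hist3h2a, H2afx and H1fx had none.

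Promoter sequences (250 bases before to 50 after the RefSeq start, GRCm38.p6) were found for 66 members. Motifs were searched on both strands. They were the TATA box with the letters TATAAA, the CCAAT box, the octamer of histone promoters with the letters ATTTGCAT, and the H1 box of linker histone promoters with the letters AAACACA. The H1 box was in 5 of 6 replication-dependent H1 promoters against 7.20% of all promoters, and CCAAT in 29 of 29 H2A and H2B promoters against 37.4%. The promoters of 3 linker histone genes are shown because these genes differed most within the H1 family in the comparison of the libraries, with motif matches in capitals. They lie at chr13:23738557-23738856 on the plus strand (Hist1h1c), chr13:21780576-21780875 on the minus strand (Hist1h1b) and chr6:87981433-87981732 on the minus strand (H1fx).
Hist1h1c: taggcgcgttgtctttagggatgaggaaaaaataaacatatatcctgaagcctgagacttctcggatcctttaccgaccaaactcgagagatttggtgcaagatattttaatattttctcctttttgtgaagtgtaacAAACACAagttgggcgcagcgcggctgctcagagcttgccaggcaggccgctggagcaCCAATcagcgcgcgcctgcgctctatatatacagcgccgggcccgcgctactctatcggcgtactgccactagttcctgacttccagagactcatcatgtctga
Hist1h1b: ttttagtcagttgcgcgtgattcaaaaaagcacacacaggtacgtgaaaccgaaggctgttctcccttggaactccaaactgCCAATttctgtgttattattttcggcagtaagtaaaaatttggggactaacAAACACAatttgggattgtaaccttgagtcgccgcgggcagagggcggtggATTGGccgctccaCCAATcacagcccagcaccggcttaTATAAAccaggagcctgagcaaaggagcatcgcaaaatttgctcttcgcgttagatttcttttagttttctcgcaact
H1fx: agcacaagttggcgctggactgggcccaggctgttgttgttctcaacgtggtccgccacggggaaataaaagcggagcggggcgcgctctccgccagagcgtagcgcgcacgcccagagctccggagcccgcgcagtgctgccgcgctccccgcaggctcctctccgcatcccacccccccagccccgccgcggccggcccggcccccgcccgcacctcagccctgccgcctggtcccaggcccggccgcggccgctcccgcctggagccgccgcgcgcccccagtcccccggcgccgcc

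The AAACACA and CCAAT matches were present in both Hist1h1c and Hist1h1b, TATAAA was in Hist1h1b, and none of the 4 motifs matched in this window of H1fx. The GENCODE model of H1fx begins farther upstream than the RefSeq start, at position 87981637 on the minus strand. Most of the H1fx window (87981433 to 87981732) therefore lies inside the annotated gene, unlike the windows of Hist1h1c and Hist1h1b. The lack of matches does not describe the sequence before the GENCODE start of H1fx. A match is a match of letters and no evidence of binding.

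Tags of replication-dependent histone genes were lower in sum in the KO library. The 62 genes summed to 631 CPM in WT and 423 CPM in KO, a log2 ratio of KO over WT of -0.58 (-0.60 to -0.55). The 10 replacement genes summed to 5524 CPM in WT and 4789 CPM in KO, a log2 ratio of -0.21 (-0.21 to -0.20). Replication-dependent genes thus gave 10.2% of histone UMIs in WT and 8.12% in KO. Without Hist1h2bc, the gene with the most UMIs, the replication-dependent ratio was -0.45. It was -0.58 without cluster 6 and also without cells holding at least 1% pancreatic enzyme UMIs. In bulk sums such as these, fewer cells of a type and less RNA per cell cannot be told apart.

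A gene was called higher or lower at 1.5-fold or more with an interval that excludes equal levels, among genes with at least 50 UMIs over both libraries. Of 48 replication-dependent genes with that depth, 23 were lower in KO, 1 was higher and 24 were neither, with a median log2 ratio of -0.54. Over all 13334 genes with that depth, 16.2% were called lower and 16.7% were called higher, and the median ratio was -0.04. Of the 10 replacement genes, 3 were lower (H1fx, H2afx and H2afv) and 0 higher. The remaining 15 members had 12 to 45 UMIs each, and 14 of them had more UMIs in WT, the larger library. Hist1h1t, a testis linker histone, had 15 UMIs in WT and 0 in KO, at least 3.13-fold higher in WT against a floor of 3 counts.

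**Figure D1:**
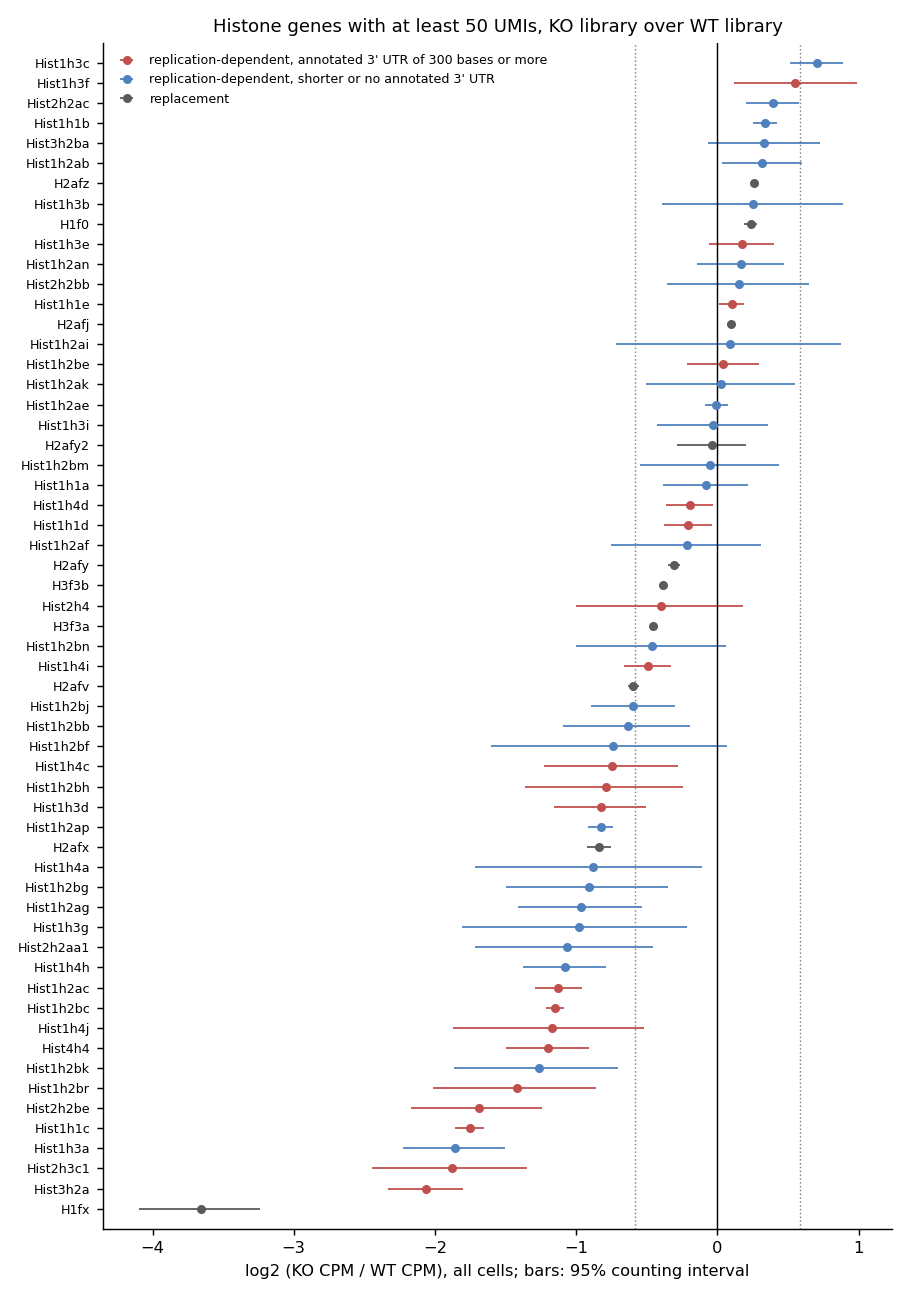
Log2 ratio of KO CPM over WT CPM over all cells (x axis) for each histone gene with at least 50 UMIs (rows, ordered by the ratio), with 95% counting intervals. Dotted lines mark 1.5-fold. Points to the left of the left line are called lower where their interval excludes 0. H1fx lies farthest left at -3.65, and Hist1h3c farthest right at 0.70.

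By annotated 3′ end, the extended genes summed to 390 CPM in WT and 210 CPM in KO (log2 ratio -0.89, -0.93 to -0.86), and the short genes to 241 and 213 CPM (-0.18, -0.22 to -0.14). Of 20 extended genes with enough UMIs 12 were lower and 0 higher, and of 28 short genes 11 were lower and 1 higher. Over all genes 16.2% were lower and 16.7% higher, so the share lower was above that of all genes in both groups (60% and 39.3%). These sums depend on a few genes and on the length chosen. The extended ratio was -0.77 without Hist1h2bc, and the short ratio was 0.013 without Hist1h2ap. With 100 bases as the limit the ratios were -0.71 for extended and -0.27 for short, while with 1000 bases they were -0.50 and -0.59, so the gap between the groups was not present at that limit. Hist1h2bc and Hist1h1c, with 742 and 880 bases of annotated 3′ UTR, change group there.

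Among the replication-dependent linker histones, which bind the DNA between nucleosomes, Hist1h1c alone of the 5 genes with enough UMIs was called lower over all cells. This share is near the 16.2% of all genes called lower. Hist1h1c (H1.2, chr13:23738808-23740367, plus strand) was at 85.3 CPM in WT and 25.3 CPM in KO, a log2 ratio of -1.75 (-1.85 to -1.65). Hist1h1b (H1.5, chr13:21779883-21780625, minus strand) was at 43.8 CPM in WT and 55.4 CPM in KO, 0.34 (0.26 to 0.42). Hist1h1e (H1.4) was at 40.8 and 43.8 CPM, 0.10 (0.01 to 0.19), but it overlaps Hist1h2be on the same strand. Hist1h1d (H1.3) was at 13.3 and 11.6 CPM, -0.20 (-0.38 to -0.03). It was called lower in clusters 0, 1 and 2 (-0.63, -0.67 and -0.85) and in female cells (-0.68, -0.95 to -0.42), and was at 0.10 (-0.13 to 0.32) in cluster 3 and -0.10 in male cells. Without Hist1h1c the replication-dependent H1 sum was slightly higher in KO, at 102 CPM in WT and 115 CPM in KO. The lower H1 sum over all cells (188 and 140 CPM, -0.42) thus rested on 1 gene.

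The replacement linker histones went different ways. H1fx (H1.10, chr6:87980421-87981637, minus strand) was at 16.4 CPM in WT and 1.30 CPM in KO, from 987 and 49 UMIs, a log2 ratio of -3.65 (-4.10 to -3.24). This was the lowest ratio of all 58 members with enough UMIs. A predicted gene, Gm47286, overlaps it on the same strand. H1f0 (H1.0), known for accumulating as cells differentiate, was at 164 CPM in WT and 193 CPM in KO, 0.23 (0.19 to 0.28).

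H2A genes split in the same manner. Hist1h2ac (chr13:23681467-23683948) was at 22.1 CPM in WT and 10.1 CPM in KO, -1.13 (-1.29 to -0.96), and Hist3h2a (chr11:58954685-58956830) at 15.0 and 3.59 CPM, -2.06 (-2.33 to -1.80). Hist1h2ae was at 51.3 CPM in WT and 51.0 CPM in KO, -0.01 (-0.09 to 0.07). These 3 genes make core H2A proteins, and their tags were 2.18-fold lower, 4.17-fold lower and at the same level. Hist1h2ap was at 66.9 and 37.7 CPM, -0.83 (-0.91 to -0.74). All of its 3′ words also occurred in other genes, so reads may have been assigned between copies and its value is uncertain. The difference was found in female cells (81.3 and 33.7 CPM, -1.27) and was within counting error in male cells (52.4 and 47.2 CPM, -0.15, -0.31 to 0.01).

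Of the H2A variants, H2afx was lower in KO. H2afx, whose protein is phosphorylated at DNA breaks and whose gene also makes a stem-loop mRNA, was at 74.9 CPM in WT and 41.9 CPM in KO, -0.84 (-0.92 to -0.76). H2afv, which with H2afz encodes the 2 forms of H2A.Z found at promoters, was at 321 and 213 CPM, -0.60 (-0.63 to -0.56), just past the 1.5-fold limit. H2afz itself was at 1020 CPM in WT and 1219 CPM in KO, 0.26 (0.24 to 0.27). The 2 H2A.Z genes therefore had ratios of opposite sign. H2afj was at 505 and 540 CPM (0.10), and H2afy (macroH2A1, known from silenced chromatin) at 227 and 184 CPM (-0.31).

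H2B had the lowest ratio of the family sums, with 174 CPM in WT and 86.8 CPM in KO (-1.0, -1.06 to -0.94). Most of this was Hist1h2bc (chr13:23684199-23692908, plus strand), the most abundant replication-dependent gene by tags, at 140 CPM in WT and 63.2 CPM in KO, -1.15 (-1.22 to -1.08). The other H2B genes together were at 33.6 and 23.6 CPM, -0.51. Hist2h2be was at 4.12 and 1.28 CPM, -1.69 (-2.17 to -1.24). Of 14 H2B genes with enough UMIs, 8 were lower and 0 higher, against 16.2% and 16.7% of all genes.

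H3 genes differed widely among themselves. Hist1h3c was the 1 member called higher, at 7.72 CPM in WT and 12.6 CPM in KO, 0.70 (0.51 to 0.89). Hist1h3a was at 7.31 and 2.02 CPM, -1.86 (-2.23 to -1.50), and Hist2h3c1 at 3.32 and 0.90 CPM, -1.88 (-2.45 to -1.35). These 3 genes share at least 53.8% of their 3′ words with other genes. The H3.3 genes, which encode the replacement H3 made throughout the cell cycle, were lower by less than 1.5-fold: H3f3b at 1742 and 1337 CPM (-0.38, -0.40 to -0.37) and H3f3a at 1447 and 1054 CPM (-0.46, -0.47 to -0.44). H3f3a, H3f3b and H2afz held 76.2% of replacement UMIs in WT and 75.4% in KO.

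All 8 H4 genes with enough UMIs had a ratio below 0, from -1.20 to -0.20. Of these, 5 were called lower, against 16.2% of all genes. Hist4h4 (chr6:136801553-136804415) was at 7.44 and 3.24 CPM, -1.20 (-1.50 to -0.91), and Hist1h4h at 7.08 and 3.35 CPM, -1.08 (-1.38 to -0.79). Hist1h4i, at 15.9 and 11.3 CPM (-0.49), and Hist1h4d, at 14.3 and 12.4 CPM (-0.20), were not called. Since 3′ capture differs between genes, ranks of genes by level and shares of UMIs in this report are those of tags. They do not give the order or share of the mRNAs.

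The deposited annotation assigned each cell to 1 of 7 numbered clusters. Marker genes placed goblet-like cells in clusters 1 and 2, cycling-like cells in cluster 3, colonocyte-like cells in cluster 4 and enteroendocrine-like cells in cluster 5. Cluster 0 was led by pancreatic enzyme genes and stays unnamed. Stem cell markers were the second-best marker set in cluster 0 and also in cluster 3. These enzyme tags were in the WT library: the 12 markers summed to 6984 CPM in WT and 101 CPM in KO (8 at 0) in cluster 0, and 33 WT cells held nearly all of them, since the WT sum was 77.3 CPM without those cells. Immune markers in cluster 0 summed to 59.1 CPM in WT and 218 CPM in KO, and their part in the ratios of this cluster was not tested. Cluster 6 had 117 WT and 31 KO cells, was led by collagen genes and was not compared.

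The replication-dependent sum was lower in KO in each of the 6 clusters compared. The log2 ratio was -0.95 in cluster 0 (-0.93 without the 33 enzyme-rich WT cells), -0.92 in cluster 1, -0.96 in cluster 2, -0.78 in cluster 4 and -0.77 in cluster 5. In the cycling-like cluster 3 it was -0.31 (-0.35 to -0.28), with 1227 CPM in WT and 989 CPM in KO. The replacement sum ranged from -0.31 in cluster 1 to -0.03 in cluster 4. Outside cluster 3 the 2 groups of histones were thus farther apart than within it.

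In each cluster compared, a larger share of replication-dependent genes than of all genes was called lower. These shares did not follow the sums, with 36.4% in cluster 3 and 35.7% in cluster 4. In cluster 3, 16 of 44 replication-dependent genes were lower and 1 higher, against 11.7% and 17.5% of all genes. In cluster 0, 10 of 18 were lower and 1 higher (all genes 12.9% and 19.9%). In cluster 1, 11 of 17 were lower and 0 higher (16.8% and 13.1%), and in cluster 2, 11 of 16 and 0 (16.7% and 14.4%). In cluster 4, 5 of 14 were lower and 1 higher (12.7% and 16.0%), and in cluster 5, 4 of 9 and 1 (9.76% and 14.9%). Cluster 3 held 54.4% of the replication-dependent UMIs of WT and 63.3% of those of KO.

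Hist1h1c was lower in KO in each of these clusters. Its level ran from 49.5 CPM in cluster 0 to 136 CPM in cluster 5 of the WT library, and from 16.5 CPM to 34.9 CPM in the KO library, so the highest KO cluster lay below the lowest WT cluster. The ratios ranged from -2.07 in cluster 1 to -1.49 in cluster 3. Hist1h2bc ranged from 78.5 to 165 CPM in WT and from 46.0 to 92.8 CPM in KO, with ratios from -1.41 in cluster 3 to -0.74 in cluster 4. Hist3h2a ranged from 8.31 to 33.1 CPM in WT and from 2.55 to 7.89 CPM in KO, and its ratio was lowest in cluster 3 at -2.98 (-3.61 to -2.40). Hist1h2ac was likewise called lower in each cluster, from -1.41 to -0.89.

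H2afx behaved differently across clusters. In cluster 3 it was at 190 CPM in WT and 63.1 CPM in KO, -1.59 (-1.72 to -1.47). In the other clusters it was at 26.1 to 53.7 CPM in WT and 31.1 to 50.9 CPM in KO, and in the sum of cells outside cluster 3 the ratio was 0.17 (0.05 to 0.30). The lower H2afx level over all cells was therefore carried by the cycling-like cluster.

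H1fx was highest in the enteroendocrine-like cluster 5, at 76.5 CPM in WT and 23.7 CPM in KO, -1.69 (-2.37 to -1.07). In cluster 3 it was at 30.2 and 1.18 CPM (508 and 12 UMIs), and in cluster 0 at 16.9 and 0.85 CPM. In cluster 1 it had 39 UMIs in WT and 0 in KO, at least 12.9-fold higher in WT against a floor of 3 counts. Its KO tags were mostly in cluster 5, which gave 27 of 49 UMIs.

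Hist1h1b was called higher in cluster 4, at 6.52 CPM in WT and 11.3 CPM in KO (0.80, 0.25 to 1.34), and in no other cluster. It was also called higher in male cells (0.79, 0.63 to 0.94) and not in female cells (0.11). H2afz was at 588 CPM in WT and 1037 CPM in KO in the colonocyte-like cluster 4, 0.82 (0.76 to 0.87), and was likewise not called elsewhere. H1f0 was called higher in cluster 0, at 106 and 162 CPM (0.61, 0.50 to 0.73, and 0.63 without the 33 enzyme-rich WT cells), and stood between 0.08 and 0.40 in the others. Hist3h2ba, an H2B gene, stood out for its place: it was at 37.9 CPM in WT and 65.7 CPM in KO in cluster 5 (0.80, 0.25 to 1.35) and at no more than 2.20 CPM in the others. It had a UMI in 29.3% of the cluster 5 cells of WT and 28.5% of those of KO, against 0.542% and 0% in cluster 0, where 0 of 816 KO cells allows a share of cells with a UMI of up to 0.368% (3 counts) and says nothing of expression below the capture limit. Thinned to 3000 UMIs per cell, the cluster 5 shares were 14.4% and 22.1%. Median UMIs in cluster 5 were 7897 and 5492, below the 10941 and 7822.5 (WT and KO) of cluster 0.

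**Figure D2:**
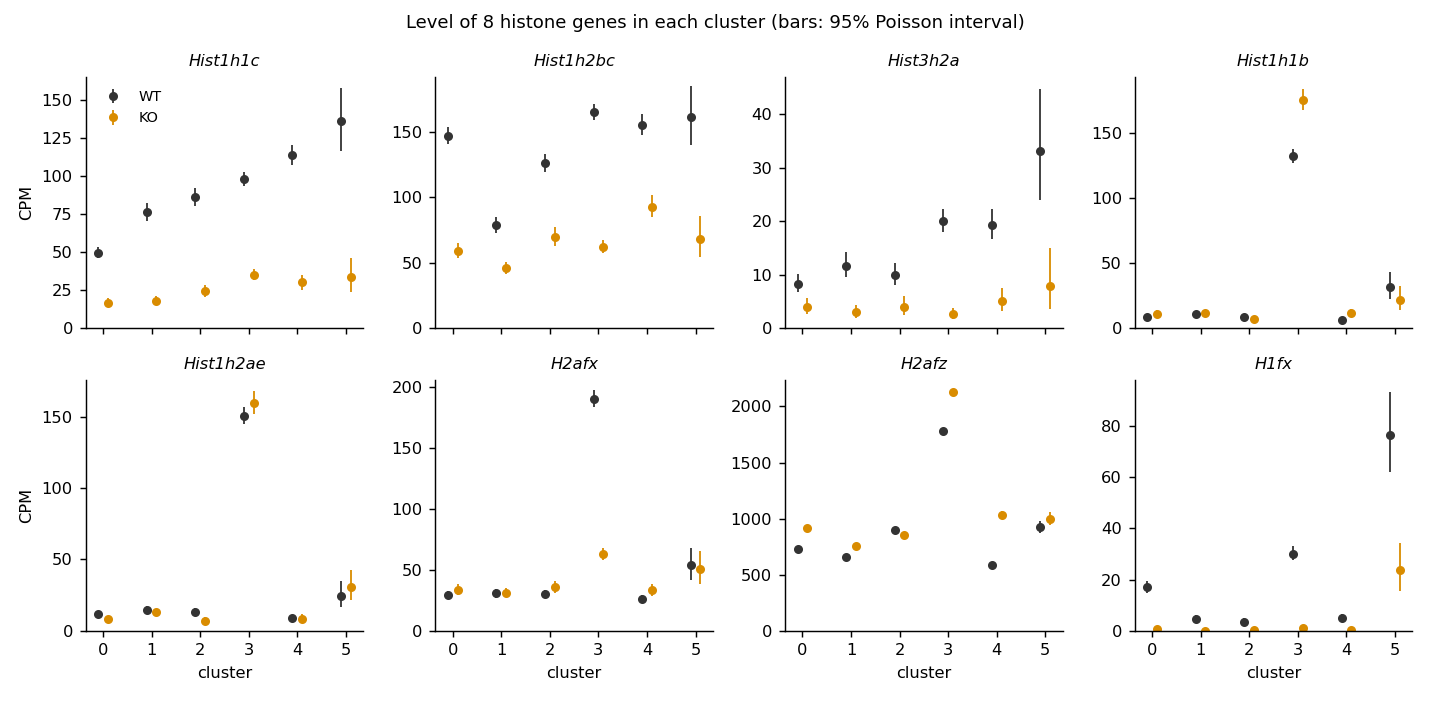
CPM (y axis, starting at 0) in each cluster (x axis) for 8 histone genes, WT in black and KO in orange, with 95% Poisson intervals. Hist1h1c, Hist1h2bc and Hist3h2a are lower in KO in every cluster shown, H2afx is over 1.5-fold apart only in cluster 3 (190 and 63.1 CPM), and Hist1h1b and Hist1h2ae are highest in cluster 3 in both libraries.

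The cycling-like cluster was used to describe which histone genes go with division. Since the clusters were made from the same cells' expression, and Hist1h1b is among the leading genes of cluster 3, these folds are descriptions. Hist1h1b tags were 14.7-fold higher in cluster 3 than in clusters 0, 1, 2, 4 and 5 together in WT and 16.4-fold in KO. Hist1h2ae was 12.1-fold and 15.4-fold higher, and Hist1h2ap 13.4-fold and 13.9-fold. Hist1h2bc was 1.26-fold and 0.975-fold, and Hist1h1c 1.21-fold and 1.61-fold. The first 3 of these genes thus had over 12-fold more tags in cluster 3 than in the other clusters pooled, and Hist1h2bc and Hist1h1c under 2-fold, although both varied over 2-fold between single clusters of the WT library.

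By annotated 3′ end, 23 of 28 short genes were at least 4-fold higher in cluster 3 in WT and 24 of 28 in KO. Of 20 extended genes, 3 reached 4-fold in WT and 8 in KO. The share of all genes at least 4-fold higher in cluster 3 was not computed. These counts therefore compare the groups of histone genes only with each other. Cluster 3 held 78.3% of short-gene UMIs in WT and 81.1% in KO, and 39.6% and 45.2% of extended-gene UMIs. Of the replacement genes, H2afx was 6.40-fold higher in cluster 3 in WT but 1.86-fold in KO, while H2afz was 2.44-fold and 2.42-fold. H1fx was 2.93-fold in WT and 0.893-fold in KO. The KO fold rested on 12 UMIs in cluster 3 and 36 UMIs in the other clusters pooled. Its log2 interval, -1.24 to 0.81, included equal levels. The KO tags of H1fx were mostly in the enteroendocrine-like cluster, which is part of that pool. Whether H1fx differed between the libraries in its fold over the remaining clusters was not tested.

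**Figure D3:**
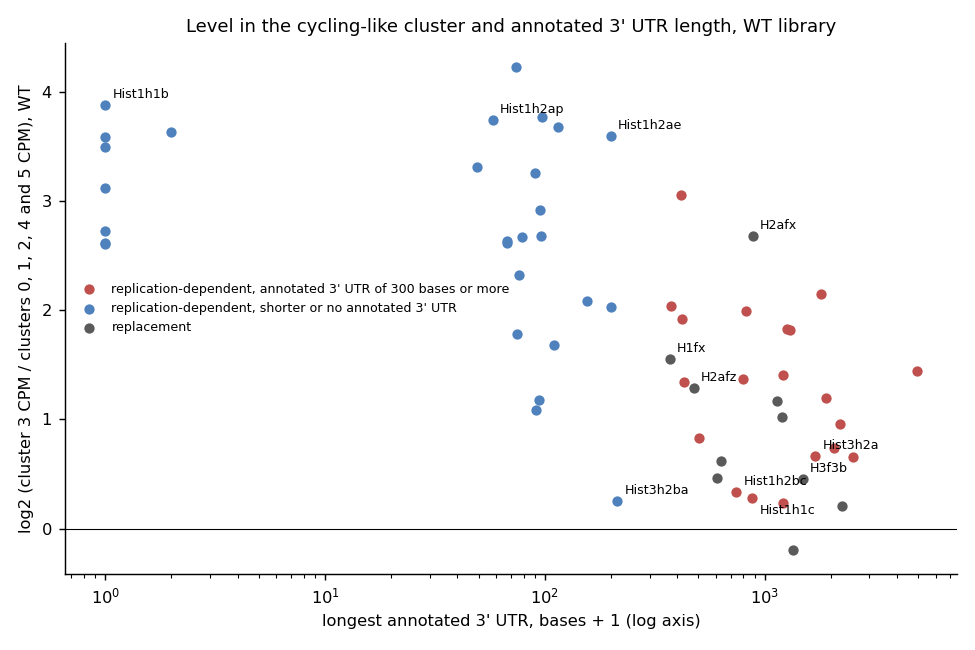
Log2 fold of cluster 3 over clusters 0, 1, 2, 4 and 5 in the WT library (y axis) against the longest annotated 3′ UTR of each histone gene plus 1 base (x axis, log scale), for genes with at least 50 UMIs. Most short genes (blue) lie above 2 (4-fold), while 3 of 20 extended genes (red) and 1 of 10 replacement genes, H2afx (black), do. The share of all genes above 2 was not computed.

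Within cluster 3, cells of both libraries were divided into tertiles by their share of UMIs from S phase genes (no histone among them), a split chosen after seeing the data. The short genes went with this share in both libraries. They summed to 185 CPM in WT and 144 CPM in KO in the lowest tertile, to 697 and 667 CPM in the middle tertile and to 1004 and 1070 CPM in the highest. The extended sum went the other way in WT, with 766, 508 and 445 CPM from the lowest to the highest tertile. It did not in KO, with 288, 342 and 419 CPM. In WT Hist1h2bc alone fell by about as much (values below), so the fall of the sum rested mostly on this gene. The log2 ratio of the extended sum was -1.41 (-1.52 to -1.30) in the lowest tertile, -0.57 in the middle and -0.09 (-0.18 to 0.01) in the highest. The same ratios without Hist1h2bc are not given here.

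Single genes gave the following levels, with Hist1h2bc falling towards the highest tertile in both libraries and Hist1h1b climbing in both. Hist1h2bc was at 387, 112 and 59.9 CPM in WT from the lowest to the highest tertile, and at 113, 47.8 and 31.4 CPM in KO. Hist1h1c was at 160, 82.7 and 68.8 CPM in WT and at 34.4, 31.1 and 40.1 CPM in KO. Hist1h1b was at 23.0, 127 and 217 CPM in WT and at 32.7, 181 and 304 CPM in KO. The depth differed between tertiles: median UMIs per cell were 10981.5, 19010.5 and 16740.5 in WT and 8264, 10887 and 10565 in KO, and its part in these levels was not tested.

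H2afx was then set against the share of G2 and M phase genes. In WT it was at 85.4, 166 and 329 CPM from the lowest to the highest tertile, and in KO at 43.0, 63.2 and 86.0 CPM. The ratio was -0.99 (-1.26 to -0.73) in the lowest tertile and -1.94 (-2.13 to -1.75) in the highest. The 2 libraries held similar shares of these genes within a tertile, 1.34% of UMIs in both in the highest.

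**Figure D4:**
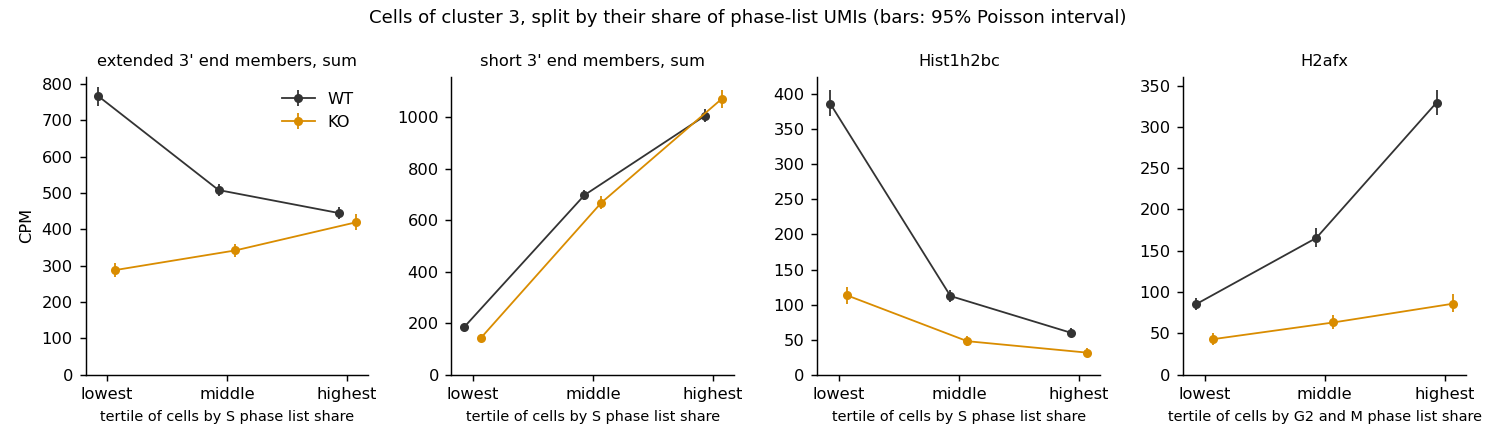
CPM (y axes, starting at 0) in the lowest, middle and highest tertile of cluster 3 cells by their share of S phase list UMIs (left 3 panels) or of G2 and M phase list UMIs (right panel), WT in black and KO in orange, with 95% Poisson intervals. Extended genes reach 766 CPM in WT and 288 CPM in KO in the lowest tertile, the short genes lie close in both libraries (1004 and 1070 CPM in the highest tertile), and H2afx separates most in the highest G2 and M tertile.

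The share of cells with a tag followed the levels. Hist1h1c was detected in 50.1% (48.6 to 51.6, exact Clopper-Pearson) of WT cells and 19.6% (18.4 to 21.0) of KO cells, and Hist1h2bc in 59.5% and 34.7%. After thinning each cell to 3000 UMIs, which left out 172 WT and 97 KO cells, the shares were 20.01% and 6.50% for Hist1h1c and 29.1% and 16.0% for Hist1h2bc. H1fx was detected in 15.6% of WT and 1.04% of KO cells, and in 4.85% and 0.450% after thinning. H2afx in cluster 3 was detected in 79.4% and 43.1% of cells, and in 38.6% and 13.7% after thinning. No cluster could be taken to lack histones, so free RNA has no reference for these genes. The lowest WT share of H1fx was 3.98%, in cluster 2.

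The tags of these genes were spread over many cells. In WT, 475 cells held 50% of the Hist1h2bc UMIs and 463 cells held 50% of the Hist1h1c UMIs, and the top 1% of cells for each gene held 9.08% and 10.4%. In KO the top 1% held 11.8% and 14.8%.

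Cells assigned to a sex by Xist and Y-linked UMIs (1689 female and 1540 male in WT, 1696 and 996 in KO) gave different ratios for the cycle-linked genes, a comparison chosen after seeing the data. For female cells the replication-dependent log2 ratio was -0.73 (-0.77 to -0.69), and for male cells it was -0.32 (-0.37 to -0.27). For short genes it was -0.42 in female cells and 0.28 (0.21 to 0.35) in male cells, on opposite sides of 0. Extended genes were closer, at -0.98 and -0.82. Hist1h1c was at -1.81 and -1.68, Hist1h2bc at -1.18 and -1.17, Hist3h2a at -2.04 and -1.96, H2afx at -0.94 and -0.74, and H1fx at -3.74 and -3.39. Cells of 1 sex come from other mice than cells of the other, so sex and mouse cannot be told apart.

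Genes that make, process and deposit histones were described from gene lists. Of 19 genes of histone transcription and 3′ processing, 3 were higher in KO and 0 lower, with a median log2 ratio of -0.19. These counts are read against the 16.7% of all genes called higher and the 16.2% called lower, and the share called higher here was near the first. The 3 were Lsm10 (21.3 and 77.8 CPM, 1.87), Lsm11 (13.2 and 28.3 CPM, 1.10) and the decapping enzyme gene Dcp2 (27.3 and 51.1 CPM, 0.90). Lsm10 and Lsm11 encode the Sm-like ring subunits particular to the U7 snRNP. Slbp was at 82.6 and 60.3 CPM (-0.45, -0.53 to -0.38), and Npat, the activator of histone genes at S phase entry, at 16.6 and 14.0 CPM (-0.25), neither of them called.

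Of 30 histone chaperone genes, 5 were lower and 0 higher, a share lower near that of all genes (16.2%). Among the 5 were Nasp, the H3 and H4 chaperone, at 112 and 69.2 CPM (-0.70), Npm1 at 1298 and 796 CPM (-0.71) and Nap1l1 at 257 and 162 CPM (-0.67). Cenpa, the centromeric H3 variant, was at 60.8 and 72.9 CPM (0.26). Of 16 genes for enzymes that modify H3 and H4, 1 was higher, the H3 methyltransferase gene Dot1l (29.3 and 47.0 CPM, 0.68), and 0 lower.

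Cycle genes had calls in both directions over all cells, against 16.2% lower and 16.7% higher over all genes. Of 32 S phase genes 10 were lower and 1 higher (median -0.39), with Pcna at 85.9 and 49.6 CPM (-0.79) and Fen1 at 22.3 and 55.8 CPM (1.32). Of 50 genes of G2 and M phase 8 were lower and 5 higher (median -0.14), shares no larger than those of all genes, with Mki67 at 117 and 182 CPM (0.63). Of 12 genes of cycle exit 2 were higher and 3 lower, with Cdkn1a, the p21 inhibitor, at 48.7 and 131 CPM (1.42). Cluster 3 made up 21.8% of WT and 24.4% of KO cells. The part of these shifts in the histone levels was not tested.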

How the data were processed

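Single-cell RNA was measured in 2 libraries, 1 per genotype. The deposited matrix holds raw UMI counts per gene and cell, made by the authors with bcl2fastq and Cell Ranger on mm10, per the submitters' processing notes, which give no versions used here. A deposited cell table maps each cell to its library and to 1 of 7 clusters. How doublets and low-quality cells were removed is not given in the sources used here, and no cell was removed in the main values.

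UMI counts were summed per library and cluster, divided by all UMIs of those cells and given as CPM. The log2 ratio of KO over WT has an exact conditional binomial 95% interval, levels have exact Poisson intervals and shares of cells Clopper-Pearson intervals. All of them cover counting error only, and no p-value was computed. The interval and the calls were checked on simulated counts with Poisson error only. That check does not cover uneven spread of tags over cells or differences between libraries. Genes needed 50 UMIs over both libraries to be called, and clusters 50 cells per library. For shares, cells were thinned to 3000 UMIs.

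Gene models came from GENCODE vM21 (GRCm38) and promoters from RefSeq (GRCm38.p6), in which 72 members matched. Named were all replacement genes with at least 20 CPM, the 10 replication-dependent genes with the highest CPM, and members with at least 200 UMIs and a 2-fold difference. Hist1h3c, Hist3h2ba, Hist1h1t and Hist1h2be were named after their values were seen. Of other gene lists up to 6 genes each were named by the interval bound, besides Slbp, Npat, Cenpa, Mki67 and Pcna. The members and lists were chosen with earlier results of these data known. The alternatives changed the scaling, the cells, the depth, the weights of clusters, the UMI minimum and the fold. Python 3.11.15, numpy 2.4.6, scipy 1.17.1 and pandas 2.3.3 were used.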

Additional observations from a re-analysis of the deposited data

Results flagged for a closer look

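In 4 genes the libraries differed in opposite directions in 2 clusters, each with a counting interval that excludes equal levels. How many of all genes meet this rule was not counted, so the 4 are not read as a trait of histone genes. The difference between the clusters was not tested, since each rests on 1 library per genotype. H2afx had a log2 ratio of KO over WT of 0.35 (0.05 to 0.63) in the colonocyte-like cluster 4 and -1.59 (-1.72 to -1.47) in the cycling-like cluster 3, 1.94 apart. H2afz was at 0.82 in cluster 4 and -0.07 (-0.13 to -0.02) in the goblet-like cluster 2, 0.89 apart. Hist1h1e was at 0.29 (0.17 to 0.42) in cluster 3 and -0.26 (-0.53 to -0.00) in cluster 0, 0.56 apart, and it shares its 3′ words with Hist1h2be. Its value in cluster 0 was -0.20 (-0.47 to 0.06) without 33 WT cells rich in pancreatic enzyme UMIs, an interval that includes equal levels. H2afj was at 0.27 (0.21 to 0.32) in cluster 0 and -0.21 (-0.27 to -0.15) in cluster 2, 0.47 apart, and at 0.24 in cluster 0 without those 33 cells. Of these values, that of H2afx in cluster 3 and that of H2afz in cluster 4 passed 1.5-fold.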

How the results depend on the processing

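Log2 ratios of KO over WT are given here in the order replication-dependent sum, replacement sum, and the same 2 sums in cluster 3; these 4 were below 0 under every alternative run. Without mitochondrial, ribosomal-protein and haemoglobin genes in the scaling they were -0.65, -0.28, -0.39 and -0.27. Thinned to 3000 UMIs they were -0.64, -0.18, -0.43 and -0.24, as means of per-cell CPM -0.63, -0.17, -0.41 and -0.21, and without the member with the most UMIs -0.45, -0.13, -0.20 and -0.11. In female cells they were -0.73, -0.25, -0.42 and -0.21, and in male cells -0.32, -0.15, -0.19 and -0.17. In cells with at most 10% mitochondrial UMIs the replication-dependent sum was -0.49 (-0.21 in cluster 3) and the replacement sum of cluster 3 was -0.17. With clusters 0 to 5 weighted equally the first 2 were -0.78 and -0.18. The replication-dependent sum was -0.61 without the top 1% of cells and -0.67 without genes that share 3′ words. Leaving out cells in which Xist and a Y-linked gene were both detected, the replacement sum was -0.20 and the replication-dependent sum of cluster 3 was -0.35.

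The extended and short sums, in that order, were -0.96 and -0.25 under the other scaling, -1.03 and -0.056 thinned, -1.02 and -0.043 as per-cell means, -0.98 and -0.34 with equal cluster weights, and -0.98 and -0.42 in female cells. They were -0.82 and 0.28 in male cells, -0.77 and 0.013 without the top member, -1.11 and 0.16 without genes that share 3′ words, -0.71 and -0.27 at 100 bases, and -0.50 and -0.59 at 1000 bases. The extended sum was -0.81 in cells with at most 10% mitochondrial UMIs. The cause of these moves was not tested.

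The count of members called lower, 26, was 14 thinned, 14 in male cells, 14 at 2-fold and 17 at 200 UMIs. The count called higher, 1, was 3 with at most 10% mitochondrial UMIs, 3 as per-cell means, 2 at 20 UMIs, 5 in male cells, and 0 in female cells, at 2-fold and with equal cluster weights. Of 27 members named from all cells, Hist1h2ae, Hist1h4d and Hist1h1e, none of them called, changed sign under some alternative. The alternatives on female cells, male cells, cluster 6, the enzyme-rich cells of cluster 0, the length limits and shared words were chosen after seeing the data. No paired analysis was possible because each genotype has 1 library.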
